A study of Mus musculus with 6 samples.

Results

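The expression of 10 genes of meiosis was examined in cultured mouse female germline stem cells (FGSCs) with and without knockdown of CTCF. The genes were taken by name: Prdm9, Meikin, Majin, Stra8, Sycp1, Sycp3, Dmc1, Spo11, Rec8 and Smc1b. They are 10 of the 24732 gene symbols with an FPKM value (fragments scaled to transcript length and to the depth of the library) and of the 24813 symbols with counts. FGSCs are cells isolated from the neonatal ovary and kept dividing in culture. The study derived its FGSCs from Ddx4-Cre;mT/mG mice, in which the promoter of the germ cell gene Ddx4 drives Cre. The labels give strain C57BL/6 and more than 20 passages for all samples, on STO feeder fibroblasts that no longer divide. One group of 3 samples is labelled control, and the other group of 3 received a lentivirus with a short hairpin RNA against Ctcf (shCTCF), followed by puromycin selection. What the control cells received is not given in the sources used here.

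Meiosis is the pair of divisions that makes haploid gametes, and in the female it begins in fetal life. STRA8 starts the program. PRDM9 then marks recombination hotspots with histone methylation, SPO11 cuts the DNA there, and DMC1 carries the broken ends into the homologous chromosome. SYCP3 builds the chromosome axis, SYCP1 joins the paired axes like a zipper, and REC8 and SMC1B are cohesin subunits special to meiosis. MAJIN anchors telomeres to the nuclear envelope, and MEIKIN makes sister kinetochores face the same pole in the first division. CTCF folds chromatin into loops together with cohesin, and the comparison asked which of these genes differed in mRNA level after its knockdown.

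Total counts per sample lay between 1686052 and 7044272, and control replicate 2 had the smallest library. A floor of 3 counts corresponded to 1.78 CPM (counts scaled to a common library size) in that sample and to 0.426 to 0.564 CPM in the others. Replicates of a group differed by 2.07 to 8.17 times the counting variance, and samples of different groups by 93.0 to 212.6 times. The pairs with control replicate 2 gave 8.17 and 7.47, and the other pairs within a group 2.07 to 3.87. The labels do not say that the samples are separate cultures, so the p-values measure the spread between these samples, which may be technical. Ctcf, the targeted gene, had between 53.5 and 58.2 FPKM in the controls and between 0.55 and 0.74 FPKM in the shCTCF samples (difference -5.12 on the log2(FPKM + 1) scale, SE 0.09, limma adjusted p = 1.1e-08). On counts Ctcf had 0 in all 6 samples, and 0.1% of its exon bases belong to only 1 of its 2 transcripts. The knockdown was thus read on FPKM only. In a whole culture, fewer cells of a type and less RNA per cell cannot be told apart.

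Of the 10 genes, Prdm9 and Meikin passed the tests, and both rose after CTCF knockdown. On counts, 3 of the 10 genes had enough reads to be tested with edgeR, and 2 of these were higher at an adjusted p under 0.05. Across all 7341 genes tested on counts, 69.1% passed in either direction and 34.8% were higher in the shCTCF group. On FPKM, both genes whose mean reached 1 FPKM passed in limma, again as higher. There the background was 73.0% of 9976 genes in either direction and 28.8% in the higher direction. The FPKM of the shCTCF group lay above all controls for 3 genes (Prdm9, Meikin and Majin) and below all controls for 1 gene, Rec8. The groups overlapped for Sycp1 and Smc1b, and the other 4 genes were listed at 0 FPKM in all 6 samples. Among the 15378 genes with any FPKM above 0, the groups did not overlap for 59.5%. With so many genes past the threshold, the share of the 10 genes that changed does not set them apart.

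**Figure D1:**
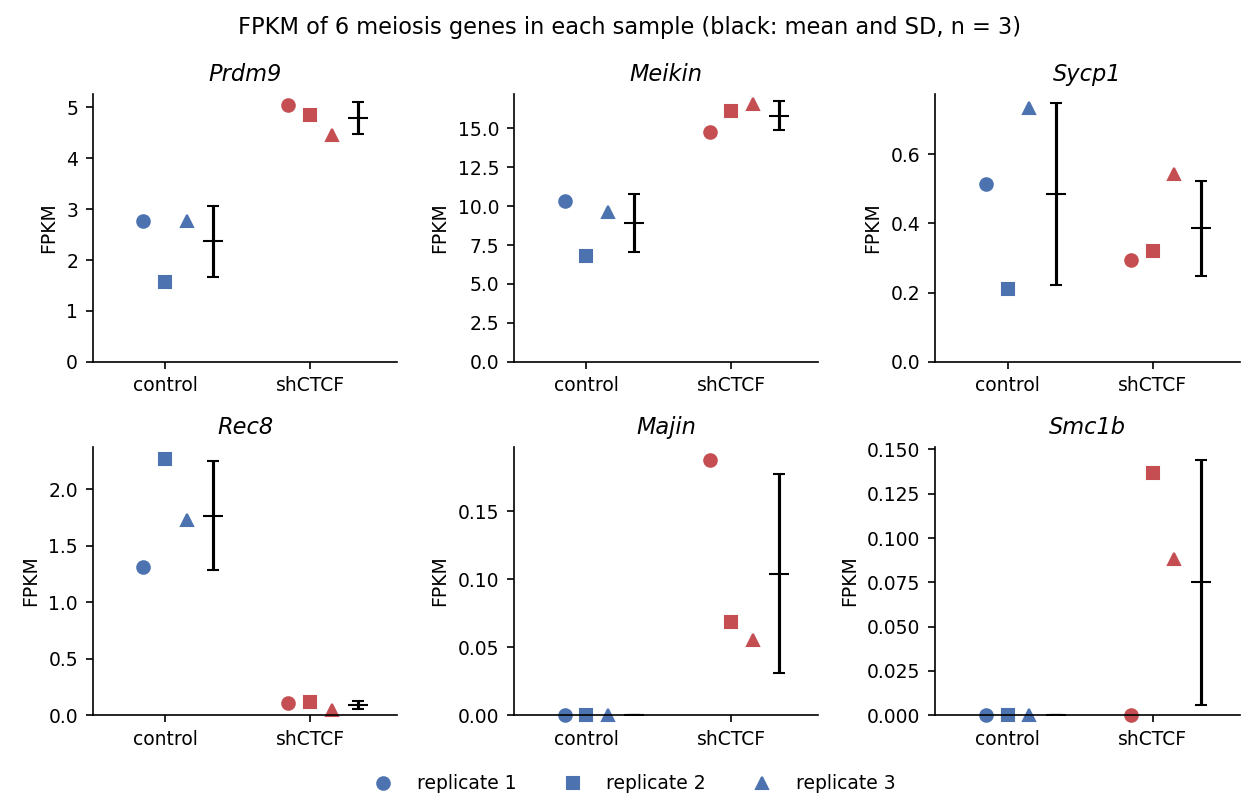
FPKM (vertical axis, linear, from 0) of the 6 genes with any FPKM above 0, in the 3 control (blue) and 3 shCTCF (red) samples; symbols mark the replicate number, and black bars the mean and SD. All shCTCF samples lie above all controls for Prdm9, Meikin and Majin and below them for Rec8, and control replicate 2 is the lowest control of Prdm9, Meikin and Sycp1.

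Stra8, the gene that starts the meiotic program, was undetected in both groups. It had 0 counts in 5 samples, 1 count in control replicate 3, and 0 FPKM in all samples. The gene has 1 transcript accession (chromosome 6, from 34870948 to 34889344 on the + strand of mm9) whose exon bases belong to no other, so its reads could have been counted. At this depth a level under the floor of 3 counts would not have been detectable.

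Prdm9, the histone methyltransferase that sets the sites of recombination, lies on the - strand of chromosome 17 (mm9, from 15680043 to 15700287) and has 1 accession with 10 exons. It had 137, 24 and 151 counts in control replicates 1, 2 and 3, and 221, 195 and 241 counts in shCTCF replicates 1, 2 and 3. Scaled for library size and composition these were 19.8, 13.4 and 20.5 CPM in the controls against 40.6, 39.0 and 37.7 CPM after knockdown. Every shCTCF sample was above every control, and control replicate 2, the smallest library, was the lowest. This gave a log2 fold change of 1.04 (SE 0.14, edgeR adjusted p = 3.31e-05). The FPKM pointed the same way, with 2.77, 1.57 and 2.76 in the controls against 5.05, 4.86 and 4.45 after knockdown. The mean went from 2.36 ± 0.692 to 4.79 ± 0.308 FPKM (SD, n = 3 each), which is 2.02 times as high. On log2(FPKM + 1), a scale that makes changes of low genes look smaller, the difference was 0.80 (SE 0.17, limma adjusted p = 0.00285). Without control replicate 2 it was 0.96 on counts and 0.62 on FPKM, and it still passed in both tests.

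Spo11, the nuclease that cuts the DNA at the marked sites, and Dmc1, the meiosis-specific recombinase, were also undetected, with 0 counts and 0 FPKM in all 6 samples. For both, the 0 counts are weak evidence. Spo11 (chromosome 2, from 172805343 to 172819077) has 4 accessions, and 8.7% of its exon bases belong to only 1 of them. Dmc1 (chromosome 15, from 79391928 to 79435539) has 3 accessions and 7.4% such bases. The count table assigned a fragment to an accession only where it touched exons of no other, so most reads of these genes would have been left out. An FPKM of exactly 0 is not proof of absence either, since 78 of the 6450 genes with at least 100 counts over the 6 samples were listed at 0 FPKM in all of them.

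Sycp1, the zipper protein of the synaptonemal complex (chromosome 3, from 102622422 to 102740023, 33 exons), was low and did not pass the test. It had 35, 2 and 44 counts in the controls against 21, 14 and 31 after knockdown, and the CPM of the groups overlapped. Its log2 fold change was -0.31 (SE 0.37, edgeR adjusted p = 0.472). The mean was 0.486 ± 0.263 FPKM in the controls and 0.386 ± 0.137 FPKM in the shCTCF group (SD, n = 3 each), and an exact two-sided permutation test gave p = 0.7, where 0.1 is the smallest p that 3 against 3 samples allow. Sycp3, the axis protein (chromosome 10, from 87922332 to 87935981), was listed at 0 FPKM in all samples but had 2, 0 and 3 counts in the controls against 1, 3 and 5 after knockdown. Its exons overlap those of Chpt1, and the count table left out fragments that touched both. It stayed below the filter of the test.

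Rec8, the meiotic kleisin of cohesin (chromosome 14, from 56237003 to 56244232), was the member with lower FPKM after the knockdown. It had 1.31, 2.27 and 1.73 FPKM in the controls against 0.106, 0.116 and 0.0465 FPKM after knockdown. Every shCTCF value lay below every control value. The mean of the controls, 1.77 ± 0.479 FPKM, was 19.8 times that of the shCTCF group, 0.0893 ± 0.0374 FPKM (SD, n = 3 each). Because the mean over all samples, 0.929 FPKM, was just under the filter of 1 FPKM, Rec8 was not in the planned test. Without that filter it differed by -1.33 on the log2(FPKM + 1) scale (SE 0.13, limma adjusted p = 0.000207), and 28.8% of 15378 genes passed as lower in that fit. The exact permutation test gave p = 0.1, the smallest possible. The count table gives no second measurement, since Rec8 has 3 overlapping accessions, 0% of its exon bases belong to only 1 of them, and it had 0 counts in all samples. All of its FPKM stood on 1 of the 3 accessions. Ipo4, a nuclear import gene on the opposite strand, has its annotated bound 5 bases beyond that of Rec8. Its FPKM went from 40.4 ± 2.15 to 19.9 ± 0.709 (SD, n = 3 each, limma adjusted p = 9.06e-06), and its part in the Rec8 value was not tested. On the other side Irf9, an interferon response gene at 8.1 kb, rose (1.41, SE 0.13, limma adjusted p = 3.93e-05). Both neighbours were chosen after the values of Rec8 were seen.

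Smc1b, the meiotic partner of the cohesin ring (chromosome 15, from 84895119 to 84962387), was close to the limit of detection. It had 0, 0 and 1 counts in the controls against 0, 6 and 5 counts after knockdown. The groups overlapped, since shCTCF replicate 1 had none. Per total counts the summed shCTCF counts were 9.35 times those of the controls, with an exact 95% interval from 1.36 to 402.0 that covers counting error only. Without a filter on low counts the edgeR adjusted p was 0.0664, and the exact permutation test on FPKM gave p = 0.4.

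Majin, the telomere anchor (chromosome 19, from 6184410 to 6224219, 11 exons), was seen only in shCTCF samples, at a low level. It had 0 counts in each control and 3, 3 and 8 counts in shCTCF replicates 1, 2 and 3. Its FPKM was 0 in the controls against 0.188, 0.0685 and 0.0552 after knockdown. Against a floor of 3 counts over the control group, the summed shCTCF counts were 3.97-fold higher per total counts. The shCTCF counts were taken as exact there, so the ratio is not a lower bound. Majin was below the filters of both planned tests. Without a filter the edgeR adjusted p on counts was 0.00411, in a fit where 21.9% of 14376 genes passed as higher. Since every control had 0 counts, a call could only be higher. The limma adjusted p on FPKM without a filter was 0.053, and the exact permutation test on FPKM gave p = 0.1.

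Meikin, the kinetochore protein of the first division (chromosome 11, from 54184154 to 54240292, 14 exons), had the highest level of the 10 genes. It had 303, 45 and 324 counts in the controls against 471, 390 and 596 after knockdown. In scaled units these were 43.8, 25.1 and 44.1 CPM in the controls against 86.5, 77.9 and 93.2 CPM after knockdown. Again the groups did not overlap and control replicate 2 was the lowest sample. Its log2 fold change was 1.10 (SE 0.15, edgeR adjusted p = 3.89e-05). Its FPKM was 10.3, 6.81 and 9.64 in the controls against 14.7, 16.1 and 16.5 after knockdown. The mean went from 8.92 ± 1.86 to 15.8 ± 0.933 FPKM (SD, n = 3 each), which is 1.77 times as high, with a difference of 0.78 on the log2(FPKM + 1) scale (SE 0.14, limma adjusted p = 0.0016). Without control replicate 2 the differences were 0.98 on counts and 0.61 on FPKM.

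**Figure D2:**
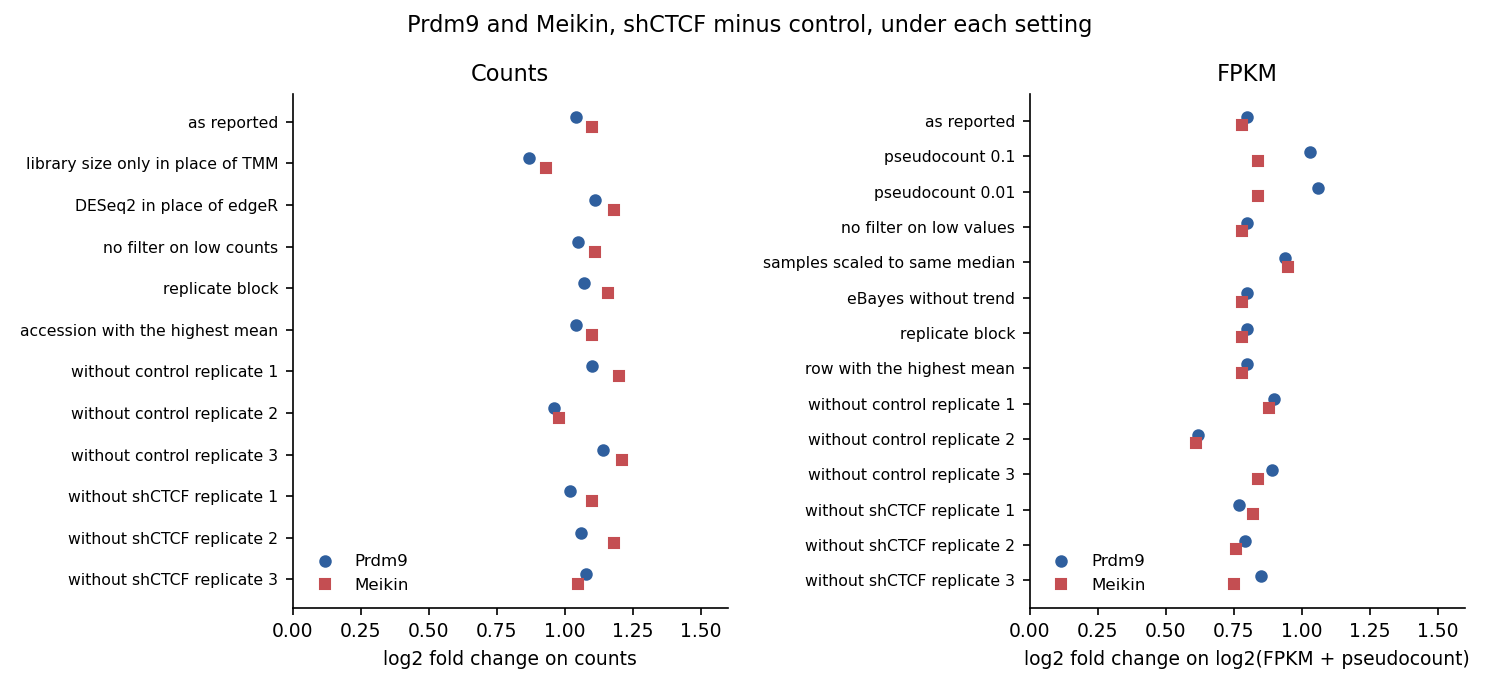
Log2 fold change (horizontal axis, shCTCF minus control) of Prdm9 (blue circles) and Meikin (red squares) under each setting, on counts (left) and FPKM (right). Every value lies above 0, from 0.87 to 1.21 on counts and from 0.61 to 1.06 on FPKM, and among the sets that leave out a sample the lowest is without control replicate 2.

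Per transcript length, Meikin was 3.49 to 4.35 times as high as Prdm9 in the controls and 2.92 to 3.71 times in the shCTCF group. In the controls the mean FPKM fell in the order Meikin, Prdm9, Rec8 and Sycp1. The values of Prdm9 and Rec8 overlapped there (1.57 to 2.77 against 1.31 to 2.27 FPKM), as neighbours in that order. In the shCTCF group the order was Meikin, Prdm9, Sycp1, Majin, Rec8 and Smc1b, and the ranges of the last 3 overlapped. Of the 10 genes, only Meikin and Prdm9 reached 1 FPKM in every sample.

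The study measured Meikin, Prdm9 and Majin with primer pairs whose places show which parts of the transcripts were assayed. Each primer matched the mm9 transcript of its gene at 1 place. The Prdm9 pair lies in exons 5 and 6 of 10 and spans 160 bases, the Meikin pair lies in exons 5 and 8 of 14 and spans 221 bases, and the Majin pair reaches from the junction of exons 1 and 2 to exon 4 of 11 and spans 190 bases. The primers are given 5′ to 3′, with no part singled out:
Prdm9 forward: ctgaatacaagtggctcagaaca
Prdm9 reverse: cctcataggcaaggccctttc
Meikin forward: cttcccatcgccagaactgt
Meikin reverse: gggctgctaatgtcatccct
Majin forward: tgaggctgccgtcaaaaaca
Majin reverse: gccaagactgcacggataga

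The promoters share a sequence feature that the choice of genes did not use. RefSeq promoters (GRCm38.p6, 250 bases before to 50 bases after the start) were in the table for 7 of the 10 genes, as 8 promoters, since Prdm9 has 2. Meikin, Majin and Spo11 were not in the table. The letters TCCCGC, the core of the site bound by E2F factors of the cell cycle, stood on either strand in the promoters of 6 of the 7 genes, Stra8 being the exception, and in 20.0% of all 32851 promoters. The E-box CACGTG was found in Sycp1 and Sycp3 (7.2% of all promoters), and the cyclic AMP response element TGACGTCA in 0 of the 7 genes (1.8%). The centre of the CTCF motif, searched on both strands as AGNNGGC with A or G and then G or T at the places of N, was found in Dmc1 and Sycp3 (27.6%). None of these motifs contains another. The genes with TCCCGC include Prdm9, which rose, Rec8, whose FPKM was lower, and Dmc1, which was undetected. A match is a description of the letters and not of a bound factor. Windows around it are given 5′ to 3′ on the strand of the gene, and the capitals mark TCCCGC or, where it reads on the other strand, GCGGGA. They are shown so that the shared letters can be compared:
Prdm9, chr17:15564378-15564417, - strand, motif at -46 from the start: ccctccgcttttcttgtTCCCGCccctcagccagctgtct
Prdm9, chr17:15563539-15563578, - strand, second start, motif at -230: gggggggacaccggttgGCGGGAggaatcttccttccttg
Rec8, chr14:55618111-55618150, + strand, motif at -38: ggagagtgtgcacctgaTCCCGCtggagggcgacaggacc
Smc1b, chr15:85131982-85132021, - strand, motif at -47: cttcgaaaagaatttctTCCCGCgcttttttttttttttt
Sycp1, chr3:102936076-102936115, - strand, motif at 2: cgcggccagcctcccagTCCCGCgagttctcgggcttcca
Sycp3, chr10:88459423-88459462, + strand, motif at -147: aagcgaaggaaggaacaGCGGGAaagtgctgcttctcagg
Dmc1, chr15:79605100-79605139, - strand, motif at -13: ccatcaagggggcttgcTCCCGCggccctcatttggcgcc
In the windows of Prdm9 upstream of the first listed start, Rec8, Smc1b and Dmc1 the motif lay within 50 bases before the start, while in Sycp3 and the other Prdm9 promoter it lay further upstream. Dmc1 holds a further match at -240, whose window is not shown.

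In wider lists, too, most genes of meiosis were at low values or at 0. Lists of germline meiosis genes by step held 69 names, synonyms included, of which 56 had FPKM values, the 10 genes among them. Of these 56 genes, 25 were listed at 0 FPKM in all samples and 43 stayed under 1 FPKM in every sample. Of all 24732 genes with FPKM values, 15378 had any FPKM above 0 and 9976 reached a mean of 1 FPKM. Of the 56 genes, 10 reached that mean. Low values were thus common among all genes. The axis and synapsis list was the emptiest, with 7 of 11 genes at 0. The 4 telomere tethering genes were all under 1 FPKM.

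**Figure D3:**
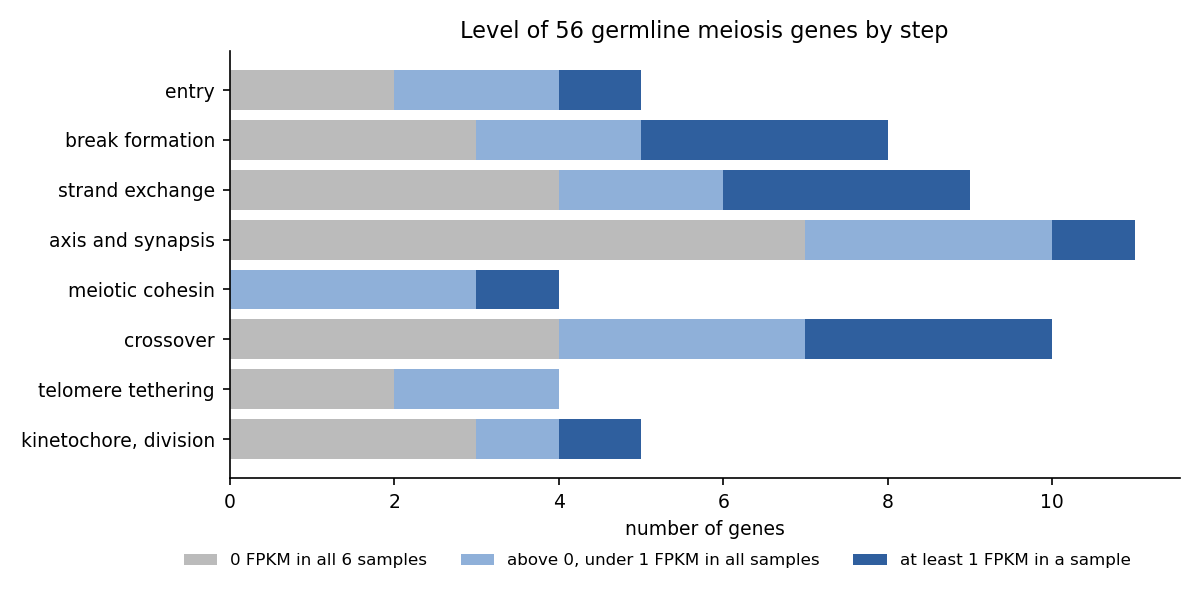
Number of germline meiosis genes (horizontal axis) in each of 8 steps (vertical axis) that were listed at 0 FPKM in all 6 samples (grey), above 0 but under 1 FPKM in every sample (light blue) or at 1 FPKM or more in at least 1 sample (dark blue). Of 56 genes, 25 are grey, and only 1 of the 11 axis and synapsis genes is dark blue.

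The listed genes that were expressed, the 10 genes included, moved in both directions. On counts 12 of the 56 genes could be tested, of which 3 were higher, 3 were lower and 6 did not pass with edgeR. In all, 34.3% of genes tested on counts were lower. On FPKM 10 could be tested, of which 3 were higher, 6 were lower and 1 did not pass with limma, against 44.2% of all genes that were lower. The median log2 fold change of the listed genes was -0.36 on counts and -0.40 on FPKM, and that of all genes tested was -0.017 on counts and -0.173 on FPKM. Changes are best read against these medians of all genes tested. Prdm9 and Meikin were among the 3 higher genes on counts and on FPKM alike. Without the 10 genes, 9 were tested on counts, of which 1 was higher and 3 were lower (median log2 fold change -0.61). On FPKM 8 were then tested, of which 1 was higher and 6 were lower (median -0.59). When every sample was scaled to the same median FPKM, the median of all genes became -0.009, and 3 listed genes were higher and 4 lower.

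Among the break formation genes, Mei4 rose on FPKM, and Gm960 passed as higher on counts from very few reads. Mei4, a partner of the SPO11 machinery, had 0.943, 0.553 and 1.51 FPKM in the controls against 5.06, 4.49 and 4.87 FPKM after knockdown. The groups stood well apart, and they differed by 1.56 on the log2(FPKM + 1) scale (SE 0.18, limma adjusted p = 0.000108). The count table held 0 counts for Mei4, which has 3 accessions, although 23.1% of its exon bases belong to only 1 of them. The rise on FPKM thus has no match on counts, and the reason was not tested. Gm960, the B-type subunit of the cutting enzyme, had 2, 0 and 3 counts in the controls against 21, 9 and 16 after knockdown (log2 fold change 3.05, SE 0.57, edgeR adjusted p = 0.000482). It entered the test only through the shCTCF group, so that a call could only be higher, and without shCTCF replicate 3 it was no longer tested. Its FPKM was 0 in all samples except shCTCF replicate 1, with 0.0447. Zcwpw1, a reader of the marks that PRDM9 sets, had 32.0, 28.7 and 27.6 FPKM in the controls against 22.0, 23.0 and 25.7 FPKM after knockdown. It was lower by 0.31 on the log2(FPKM + 1) scale (value -0.31, SE 0.09, limma adjusted p = 0.0147). That call was lost without control replicate 1 (-0.25), without shCTCF replicate 1 (-0.26), without shCTCF replicate 2 (-0.29) and after scaling to the same median (-0.13). On counts Zcwpw1 did not pass (-0.42, SE 0.51, edgeR adjusted p = 0.489), and its exons overlap those of Pilra.

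Of the 6 listed genes that were lower on FPKM, 4 act later in recombination or in synapsis. Syce2, of the central element of the synaptonemal complex, had the highest level of the 56 genes, with 55.6, 57.3 and 64.5 FPKM in the controls against 19.2, 19.0 and 21.6 FPKM after knockdown (difference -1.52, SE 0.09, limma adjusted p = 2.51e-06). On counts, where it has 4 overlapping accessions and at most 24 counts, it did not pass (-0.69, SE 0.34, edgeR adjusted p = 0.091), except when scaled by library size only (-0.85, edgeR adjusted p = 0.0413). Ccnb1ip1, which regulates crossover number, fell from 6.47, 4.31 and 7.89 FPKM to between 1.74 and 2.66 FPKM, and its log2 fold change on counts was -1.48 (SE 0.24, edgeR adjusted p = 0.000126). Psmc3ip and Mnd1 form the complex that assists DMC1. Psmc3ip fell on counts (-0.68, SE 0.17, edgeR adjusted p = 0.00309), where its exons overlap those of Mlx. Mnd1 fell on FPKM (-0.50, SE 0.13, limma adjusted p = 0.00843), but not on counts (-0.19, SE 0.14, edgeR adjusted p = 0.224). Both turned on the scaling, since the FPKM call was lost after scaling to the same median (limma adjusted p = 0.0557) and Mnd1 passed on counts scaled by library size only (-0.36, edgeR adjusted p = 0.0337). Ythdc2, an RNA helicase needed for the entry into meiosis, fell on counts (-0.74, SE 0.14, edgeR adjusted p = 0.000547) and on FPKM (-0.69, SE 0.14, limma adjusted p = 0.0026).

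**Figure D4:**
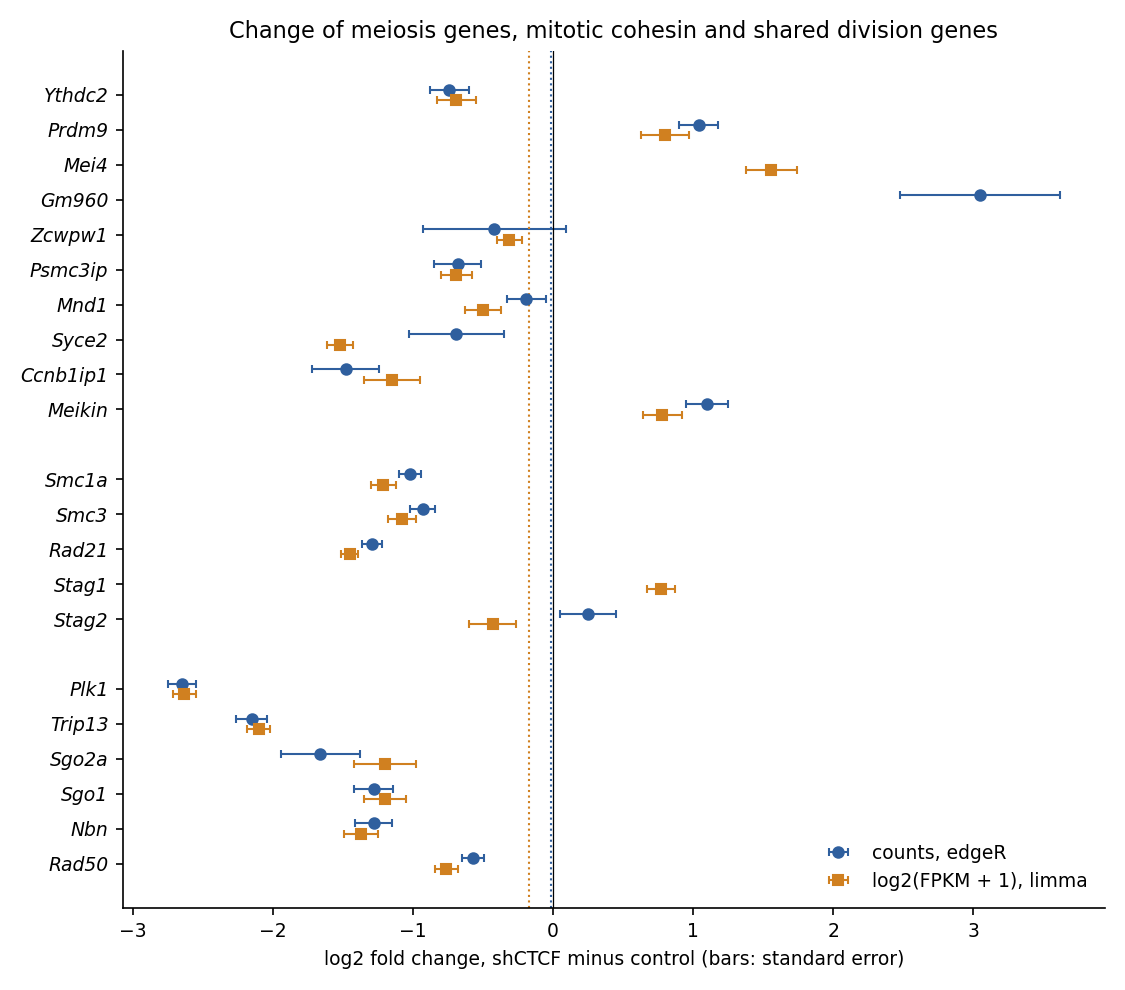
Log2 fold change (horizontal axis, shCTCF minus control, bars: standard error) of 10 germline meiosis genes (top), 5 mitotic cohesin subunits (middle) and 6 genes shared with other divisions (bottom), on counts with edgeR (blue circles) and on log2(FPKM + 1) with limma (orange squares); dotted lines mark the median of all genes tested. Prdm9, Meikin, Mei4 and Gm960 (tested on counts only, with at most 3 counts in a control) lie to the right of 0, while Rad21, Plk1 and Trip13 lie below -1 on both scales.

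The genes that meiosis shares with mitosis and DNA repair were well expressed, unlike most of the germline meiosis genes. All 22 shared genes with FPKM values reached a mean of 1 FPKM, against 10 of the 56 germline meiosis genes. Over all genes it was 9976 of 24732. On counts 10 of the shared genes were tested, of which 1 was higher, 8 were lower and 1 did not pass with edgeR. Their median was -0.92, and 34.3% of all genes were lower. On FPKM all 22 were tested, of which 2 were higher, 16 were lower and 4 did not pass with limma, against 44.2% of all genes that were lower. Plk1, a mitotic kinase that partners with MEIKIN in meiosis, fell from 39.3, 38.8 and 36.1 FPKM to 5.34, 5.64 and 5.02 FPKM (log2 fold change on counts -2.65, SE 0.10, edgeR adjusted p = 4.53e-10). Sgo1 and Sgo2a, the shugoshins that protect centromeric cohesin, fell by similar amounts on counts, with -1.28 (SE 0.14) and -1.66 (SE 0.28). Trip13, which removes axis proteins during synapsis and acts in the spindle checkpoint, was at -2.15 (SE 0.11). Nbn and Rad50, of the complex that trims broken DNA ends, were at -1.28 (SE 0.13) and -0.57 (SE 0.08). Of these 5 genes Trip13 had the smallest edgeR adjusted p, 6.82e-09, and Sgo2a the largest, 0.000191. All of them, and Plk1, also passed on FPKM with limma.

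The cohesin ring of dividing cells showed a different level from its meiotic forms. Smc1a, the counterpart of Smc1b, had 78.8, 94.8 and 77.3 FPKM in the controls against 35.7, 36.6 and 33.9 FPKM after knockdown (log2 fold change on counts -1.02, SE 0.08, edgeR adjusted p = 3.65e-07). Rad21, the counterpart of Rec8, had 127, 122 and 125 FPKM in the controls against 42.9, 46.8 and 45.2 FPKM after knockdown (-1.29 on counts, SE 0.07, edgeR adjusted p = 6.76e-09). Smc3, which both forms share, fell as well (-0.93, SE 0.09, edgeR adjusted p = 1.42e-06). Stag1 was higher on FPKM (0.77, SE 0.10, limma adjusted p = 0.00023) and had 0 counts. Stag2 did not pass on counts (0.25, SE 0.20, edgeR adjusted p = 0.293) or on FPKM (-0.43, SE 0.17, limma adjusted p = 0.0552), and its direction differed between the tables. It passed on FPKM as lower without control replicate 2 (-0.65, limma adjusted p = 8.64e-06) and with the replicate block (limma adjusted p = 0.0415), but on counts as higher when only the accession with the highest mean was used (0.81, edgeR adjusted p = 0.00868).

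The nearest tested genes around Prdm9, Meikin and Majin did not share one direction. The 2 nearest genes tested on counts were taken on each side, by mm9 position, so that nearer genes outside that test were passed over. Of all genes tested on counts, 69.1% passed in either direction. Around Prdm9, Tbp, at 25.7 kb, fell on counts (-0.51, SE 0.11, edgeR adjusted p = 0.000959), while Pdcd2 at 15.8 kb (-0.14, SE 0.10), Chd1 at 141.6 kb (0.05, SE 0.07) and Zfp960 at 1500.8 kb (-0.46, SE 0.44) did not pass. On FPKM Pdcd2 passed as lower (-0.28, SE 0.08, limma adjusted p = 0.0159), a call lost without control replicate 3 (-0.26), without shCTCF replicate 3 (-0.22) and after scaling to the same median. Around Meikin, Fnip1, which begins 11.4 kb beyond its end, rose on counts (1.45, SE 0.15, edgeR adjusted p = 2.88e-06), and the interleukin gene Il13, 736 kb away, rose more (4.08, SE 0.18, edgeR adjusted p = 1.41e-09). Rad50, at 663.3 kb and also in the list of shared genes, fell, and Rapgef6, at 96.1 kb, passed on FPKM as higher (0.68, SE 0.07, limma adjusted p = 5.5e-05) but not on counts (0.46, SE 0.52). Around Majin, Ppp2r5b at 3.5 kb (0.60, SE 0.14) and Snx15 at 56.2 kb (0.53, SE 0.11) rose on counts, with edgeR adjusted p = 0.00196 and 0.00116. Arl2, at 43.3 kb, fell (-0.70, SE 0.12, edgeR adjusted p = 0.000171), and Atg2a, at 17.4 kb, did not pass (-0.11, SE 0.12). On FPKM Ppp2r5b did not pass (0.36, limma adjusted p = 0.0699). It passed without control replicate 2 (0.54, limma adjusted p = 0.000984), after scaling to the same median (0.53, limma adjusted p = 0.0185) and with the replicate block (0.36, limma adjusted p = 0.0358). Snx15 passed there (0.25, limma adjusted p = 0.0449), a call lost without control replicate 1 (0.20), control replicate 3 (0.21) or any 1 of the shCTCF replicates (0.24 to 0.26), and also without the filter, with the replicate block and with the row of the highest mean (0.25 each, limma adjusted p = 0.0651, 0.066 and 0.0694).

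Many genes varied across the samples as Prdm9 and Meikin did. Over the 6 samples, the genes most like Prdm9 on the log2(CPM + 1) scale were Gask1b (Pearson's r = 0.9998), Yipf6 (0.9996) and Rab32 (0.9993), and 902 of 7338 genes (12.3%) had an r of at least 0.95. For Meikin they were Tram1 (0.9991), Wdr26 (0.9985) and Vcpip1 (0.9981), and 571 genes (7.8%) had an r of at least 0.95. The 6 points share the difference between the groups and the small library of control replicate 2, so that these values are a description.

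Markers of the germline were largely absent from these libraries, while some of those of blood cells were abundant. Of 15 germline markers, 6 were listed at 0 FPKM in all samples (Dppa3, Gfra1, Nanos2, Nanos3, Dnd1 and Tfap2c), and 12 stayed under 1 FPKM in every sample. Ddx4, Dazl and Pou5f1 were at 0 FPKM in all controls and at most 0.182, 0.0759 and 0.112 FPKM in an shCTCF sample. The summed level of the list was 19.5 to 19.8 FPKM in the controls and 26.0 to 27.1 FPKM in the shCTCF group, but its members moved in opposite directions. Ifitm3 was higher (mean 0.737 and 10.8 FPKM) and Etv5 lower (17.3 and 14.3 FPKM), both past the limma test. Ifitm3 entered that test only through the shCTCF group, so its call could only be higher. Zbtb16, which was not tested on FPKM, had means of 1.57 and 0.288 FPKM. Of 9 oocyte markers, 6 were at 0, among them Zp1, Zp2 and Zp3, and the list's sum, 541.4 to 613.0 FPKM in the controls and 771.5 to 800.2 in the shCTCF group, was nearly all Kit. The 11 markers of mast and other blood cells, Kit included, summed to 1593 to 1672 FPKM in the controls and 2366 to 2483 in the shCTCF group. Most of this sum came from Kit, Gata2, Srgn, Cpa3 and Ptprc. The mast cell markers Mcpt4, Tpsb2, Ms4a2 and Fcer1a, 4 of the 11, stayed under 1 FPKM in every sample, with Fcer1a at 0. On FPKM 7 were tested with limma, of which 4 were higher (Cma1, Hdc, Kit and Srgn), 1 was lower (Cpa3, mean 280.7 and 87.98 FPKM) and 2 did not pass (Gata2 and Ptprc). Of all genes tested on FPKM, 28.8% were higher and 44.2% lower. The 6 ovarian somatic markers summed to 0.06 to 0.43 FPKM in the controls and 2.10 to 3.25 in the shCTCF group, mostly Wt1, with Foxl2 and Fshr at 0. The 11 fibroblast markers, which could show feeder cells, summed to 10.2 to 10.8 FPKM in the controls and 8.62 to 8.97 in the shCTCF group, with Col3a1 and Lum at 0. That sum also joins opposite changes. On FPKM Pdgfra (mean 1.13 and 4.16) and Thy1 (0.382 and 2.02) were higher and Pdgfrb (6.09 and 2.16) and Dcn (2.71 and 0) lower with limma. Thy1 reached the filter on the mean only through the shCTCF group and Dcn only through the controls, so each could be called in 1 direction only. On counts the 3 tested, Fbn1, Pdgfra and Thy1, were higher with edgeR, against 34.8% of all genes tested. All 3 passed the filter on low counts only through the shCTCF group, so a call could only be higher. The part of these differences in the rise of Prdm9 and Meikin and in the fall of the other genes was not tested.

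**Figure D5:**
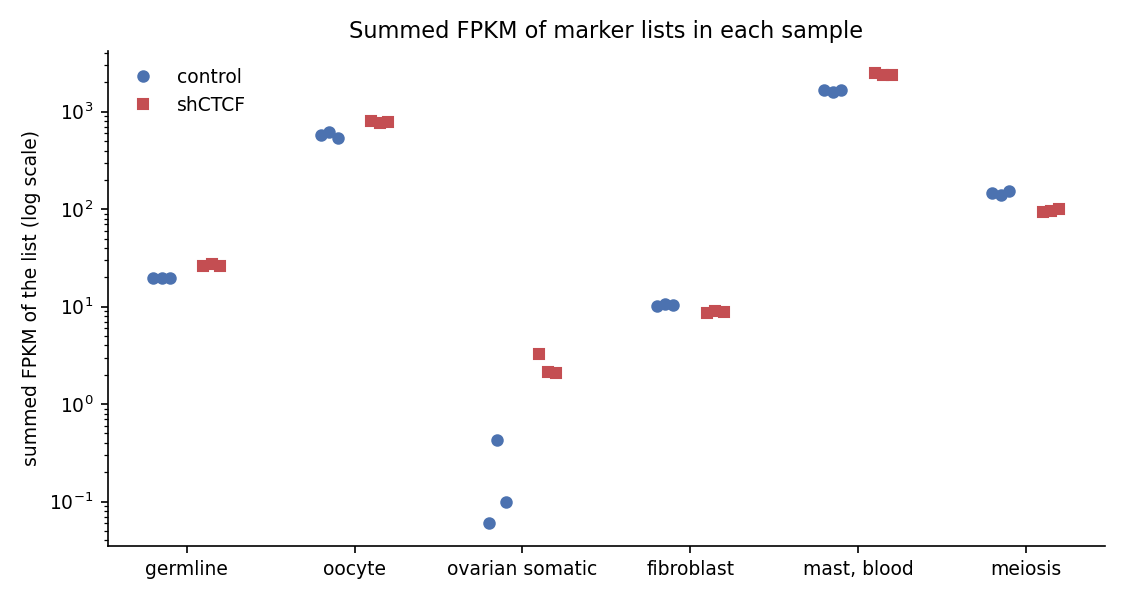
Summed FPKM (vertical axis, log scale) of the marker lists and of the 56 meiosis genes (horizontal axis) in the control (blue circles) and shCTCF (red squares) samples. The list of mast and blood cell markers lies between 1593 and 2483 FPKM and that of germline markers between 19.5 and 27.1 FPKM; Kit is in both the oocyte and the blood list.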

How the data were processed

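RNA was measured by RNA-seq (stranded mRNA libraries) in 3 control and 3 shCTCF samples, grouped by the labels. The authors aligned reads to mm9 with HISAT2. The deposited counts are whole fragments per RefSeq accession from featureCounts 1.6.2, without normalization. Per the file header, the strand was not used and a fragment touching several accessions was not counted. The deposited FPKM values were calculated by the authors with Cufflinks 2.2.1 and are normalized for depth.

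Accessions were named with a RefSeq table of GRCm38.p6 (41186 of 41388 accessions with counts, 41685 of 41876 rows with FPKM), and values were summed per symbol. Counts without a symbol were 0.603% of a library at most. Coordinates are those of mm9, counted from 1. Counts were tested with edgeR 4.0.16 (quasi-likelihood, TMM, filterByExpr, R 4.3.3). With limma 3.58.1 (trend), log2(FPKM + 1) was tested where the mean reached 1 FPKM. Tests were two-sided, with Benjamini-Hochberg adjustment over all genes tested and a threshold of 0.05. On simulated data edgeR recovered 86.5% of 96 tested genes changed 2-fold (100% of those changed 4-fold) and limma 100% of both, of 7169 and 9962 genes. There few genes changed, equally often up and down, with a noise level fixed in advance. In the data 69.1% and 73.0% of genes passed, so these rates need not carry over.

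Named genes were the 10 genes, Ctcf, all called genes of the meiosis lists (at most 12 by fold change) and the mitotic cohesin subunits. The 6 most changed shared genes on counts were added. So were the 2 nearest genes tested on counts on each side of Prdm9, Meikin and Majin. The 3 genes most correlated with Prdm9 and Meikin were named too. The 10 genes and all lists were chosen with earlier results of these data known. Total counts of 1686052 to 7044272 set floors of 0.426 to 1.78 CPM at 3 counts, which cover counting error only. Alternatives were other scalings, filters, pseudocounts and tools (DESeq2 1.42.0), the accession or row with the highest mean, a replicate block and leaving out each sample. No value column was left without a sample.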

Additional observations from a re-analysis of the deposited data

How the results depend on the processing

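The number of the 10 genes called was 2 in every setting on counts and on FPKM, except that it was 3 without a filter and with DESeq2 on counts (Majin added) and 3 without a filter on FPKM (Rec8 added). Leaving out each sample in turn gave 2 in all cases. The number of listed meiosis genes called on counts, 6 as reported, was 10 with DESeq2 and 12 without a filter, where 33 genes were tested in place of 12. It lay between 5 and 8 when a sample was left out, and on FPKM, where 9 were reported, between 8 and 10. On FPKM it was 13 without a filter. Shared and cohesin genes called on counts were 12 as reported and 11 to 13 in all alternatives. The estimate for Ctcf lay between -5.16 and -5.08 without a sample and between -6.44 and -4.42 in all alternatives.

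Replicate numbers did not pair the samples (correlation of the deviations of same-numbered samples -0.0114, 0.0252 and 0.0149). With the replicate block, 2 of the 10 genes were called in each table, 6 listed meiosis genes on counts and 9 on FPKM, 12 shared and cohesin genes on counts, and Ctcf was at -5.12. On FPKM the block moved Stag2 (-0.43) and Ppp2r5b (0.36) past the threshold and Snx15 out of it (0.25), and it changed no other call.

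Signs turned only for genes that did not pass: Chd1 with library size scaling (-0.12) and scaled medians (0.06), Zfp960 on FPKM without control replicate 2, shCTCF replicate 1 or shCTCF replicate 3 (range without a sample -0.25 to 0.20), Rapgef6 on counts without shCTCF replicate 3 (range -0.03 to 0.73), and Atg2a on counts without control replicate 2 (range -0.19 to 0.02). The causes were not tested. Of 767 single-gene values under alternatives, 735 stayed on the same side of 0 and of the threshold, 16 lost the call, 9 gained it and 7 turned in sign. Depth limits Majin, Smc1b, Sycp3 and Stra8, whose counts were at or near the floor. Shared exons limit Rec8, Dmc1, Spo11 and Ctcf in the count table.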

Other observations

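Beside Majin, 5 further listed meiosis genes had too few counts for the planned test but passed with edgeR as higher when no filter was set, a fit in which 21.9% of 14376 genes passed as higher. Genes at 0 in every control, here Mcmdc2, Stag3 and Sycp2l, could only be called higher. They were named after their values were seen. Rec114, a partner of Mei4 in break formation, had 1 count in each control against 8, 10 and 11 counts after knockdown (edgeR adjusted p = 0.00105). Each control of Rec114 was thus under the floor of 3 counts, and its FPKM was 0 in all 6 samples. Mcmdc2, a helicase-like protein of recombination, had 0 counts in the controls against 8, 1 and 6 after knockdown (edgeR adjusted p = 0.00263). Stag3, the meiotic cohesin subunit that works with Rec8, had 0 counts in the controls against 1, 5 and 4 after knockdown (edgeR adjusted p = 0.0193). Sycp2l, an axis protein of oocytes, had 0 counts in the controls against 0, 4 and 5 after knockdown (edgeR adjusted p = 0.0283). 1700102P08Rik had 3, 0 and 3 counts in the controls against 12, 9 and 7 after knockdown (edgeR adjusted p = 0.0108), and it was also higher on FPKM without the filter (limma adjusted p = 0.0243).

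On FPKM without the filter, Msh5, which stabilises recombination intermediates, was lower, with 1.30, 1.17 and 1.10 FPKM in the controls against 0.507, 0.476 and 0.464 FPKM after knockdown (limma adjusted p = 0.000552). Prr19, another crossover gene, was lower too (limma adjusted p = 0.0414), from 0.144, 0.279 and 0.269 FPKM in the controls to 0.156, 0 and 0 FPKM, with overlapping groups. In that fit 28.8% of 15378 genes passed as lower. On counts Msh5 had 6, 1 and 7 in the controls against 3, 4 and 4 after knockdown. Neither Msh5 nor Prr19 passed on counts with edgeR without a filter. Genes that stay under a filter on low values in most samples had few reads, and without a filter 5800 of 14376 genes passed on counts and 8075 of 15378 on FPKM.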
